A study of Mus musculus with 5 samples.

Results

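The genes described here are 40 genes of the unfolded protein response and of the related response to amino acid shortage, listed by name with earlier results of these data known. They comprise 4 stress sensors and transcription factors, 15 chaperones and degradation factors of the endoplasmic reticulum (ER), and 21 targets of the transcription factor ATF4. Of the 40 genes, 39 were measured by at least 1 probe set with a single gene symbol (95 probe sets), among 18193 genes in all. Pycr1 had no such probe set.

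RNA came from the esophagus of FVB/N mice aged 3 to 4 months that carry the transactivator rtTA under the CC10 promoter, which is active in club cells of the airway, and a doxycycline-inducible IL-13 transgene. Both groups carry these transgenes. The Dox group (3 arrays) was fed doxycycline and the NoDox group (2 arrays) a regular diet. Each value is a ratio to the mean of both NoDox arrays, so the NoDox values of a gene lie around 1 and sum to 2 by construction, and a ratio does not give a gene's level. A signal level was recovered from the ratios where they allowed it; otherwise a probe set has only a lower bound. Mice given doxycycline but lacking the transgenes were not analysed here, and effects of the drug and of IL-13 cannot be told apart. Whether the arrays come from different animals is not given in the labels, and the p-values therefore cover the spread among 5 arrays, which may be technical. In whole tissue, a change in the share of a cell type and a change in RNA per cell cannot be told apart.

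When unfolded protein builds up in the ER, the sensors IRE1 (Ern1), ATF6 and PERK (Eif2ak3) start the unfolded protein response. IRE1 splices the mRNA of Xbp1 into the form that makes an active factor, and XBP1 and ATF6 raise chaperones and degradation factors. PERK and other kinases of eIF2 favour translation of ATF4, which raises genes of amino acid supply and of stress control. Secretory cells use the XBP1 branch to build their ER. These arrays measured RNA amounts and do not give Xbp1 splicing, ATF6 cleavage or ATF4 protein.

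Promoter letters of the members are shown first because both classes are known for a short element each. RefSeq windows (GRCm38.p6) from 250 bases before to 50 bases after the start site were found for 35 of the 40 genes, with none for Hyou1, Manf, Cth, Slc7a5 and Atf6. Both strands were searched for 4 motifs. The ER stress response element (ERSE: CCAAT, 9 bases of any kind, then CCACG) was present in 7 of 13 chaperone genes, in 0 of 19 ATF4 targets and in 0.137% of 27025 genes. The genes were Hspa5, Hsp90b1, Dnajc3, Pdia6, Creld2, Calr and Canx. Of these, Hspa5, Pdia6 and Creld2 rose in Dox, and Hsp90b1, Dnajc3, Calr and Canx did not pass the test given below. Sdf2l1, Pdia4, Dnajb9 and Edem1 also rose, and their windows held no ERSE match. The C/EBP-ATF response element (CARE, TGATGNAA) was present in 8 of 19 ATF4 targets, in 1 of 13 chaperone genes (Herpud1) and in 4.51% of all genes. The ATF4 targets with it were Trib3, Chac1, Nupr1, Vldlr, Fgf21, Slc7a11, Asns and Pycr1. The shorter element ERSE-II (ATTGG, 1 base of any kind, then CCACG), which shares its end letters with ERSE, was found in Herpud1 only among the members and in 0.0444% of all genes. The element UPRE (TGACGTGG) was found in no member window and in 0.714% of all genes. These matches are descriptions of letters and not of binding.

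The 250 bases before the start site are given for 4 chaperone genes with an ERSE match, in capitals, of which Hspa5, Creld2 and Pdia6 rose and Canx did not pass the test. They lie at chr2:34771840-34772089 (plus strand), chr15:88819396-88819645 (plus), chr12:17266339-17266588 (plus) and chr11:50325674-50325923 (minus).
Hspa5: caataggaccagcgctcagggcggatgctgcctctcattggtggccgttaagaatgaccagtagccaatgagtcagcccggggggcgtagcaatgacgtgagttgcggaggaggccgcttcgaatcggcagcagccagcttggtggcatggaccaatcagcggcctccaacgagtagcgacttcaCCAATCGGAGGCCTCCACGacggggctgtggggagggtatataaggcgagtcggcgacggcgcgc
Creld2: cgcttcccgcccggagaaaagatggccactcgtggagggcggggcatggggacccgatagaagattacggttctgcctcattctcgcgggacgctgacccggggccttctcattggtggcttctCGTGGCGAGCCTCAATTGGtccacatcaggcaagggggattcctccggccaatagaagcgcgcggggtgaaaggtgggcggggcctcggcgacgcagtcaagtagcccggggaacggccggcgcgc
Pdia6: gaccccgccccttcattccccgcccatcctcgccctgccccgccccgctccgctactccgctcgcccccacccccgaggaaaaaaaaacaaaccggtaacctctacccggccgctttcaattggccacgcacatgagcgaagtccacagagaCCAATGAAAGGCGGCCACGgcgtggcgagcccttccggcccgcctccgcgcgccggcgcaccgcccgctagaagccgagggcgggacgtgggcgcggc
Canx: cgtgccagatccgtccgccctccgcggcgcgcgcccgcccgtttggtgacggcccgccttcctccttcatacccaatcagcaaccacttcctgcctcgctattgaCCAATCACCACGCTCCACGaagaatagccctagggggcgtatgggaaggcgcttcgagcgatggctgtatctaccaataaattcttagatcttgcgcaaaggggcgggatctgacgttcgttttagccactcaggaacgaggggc

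For 3 ATF4 targets the CARE match is in capitals; Nupr1 rose, and Asns and Chac1 did not pass the test. They lie at chr7:126625471-126625720 (minus), chr6:7693210-7693459 (minus) and chr2:119350992-119351241 (plus).
Nupr1: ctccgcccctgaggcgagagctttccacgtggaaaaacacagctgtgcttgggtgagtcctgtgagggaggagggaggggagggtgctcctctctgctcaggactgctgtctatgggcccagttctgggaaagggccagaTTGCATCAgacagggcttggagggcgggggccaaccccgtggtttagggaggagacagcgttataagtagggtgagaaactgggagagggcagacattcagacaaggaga
Asns: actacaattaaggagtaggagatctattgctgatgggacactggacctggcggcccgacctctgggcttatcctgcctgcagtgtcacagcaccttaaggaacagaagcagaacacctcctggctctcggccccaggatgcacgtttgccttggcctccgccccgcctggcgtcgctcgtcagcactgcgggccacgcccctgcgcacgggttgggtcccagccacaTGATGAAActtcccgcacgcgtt
Chac1: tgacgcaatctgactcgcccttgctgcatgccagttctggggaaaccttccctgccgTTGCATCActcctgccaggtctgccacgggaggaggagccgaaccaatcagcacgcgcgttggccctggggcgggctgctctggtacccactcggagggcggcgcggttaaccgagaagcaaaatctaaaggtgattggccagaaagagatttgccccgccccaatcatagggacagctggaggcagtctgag

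The comparison asked which of these genes differ in the esophagus when IL-13 is switched on by doxycycline. In Dox, 9 of 39 members rose: 8 of 15 chaperone and degradation genes, with Sdf2l1 at 2.74-fold and Pdia4, Manf, Creld2 and Dnajb9 at 2.03- to 2.24-fold, and 1 of 20 ATF4 targets, Nupr1 at 2.31-fold. No member fell past the threshold (limma, Benjamini-Hochberg adjusted p under 0.05), and 3 of 39 had an unadjusted p under 0.05 in that direction, against 10.5% of all genes (19 members and 6.87% in the other). Over all genes 250 rose and 217 fell, so that the share called was 1.37% higher and 1.19% lower; among the 2812 genes whose probe set has no recovered level the shares were 1.6% and 3.88%. After median centring of the arrays the split was 300 and 153. The member count rests on the arrays and on the variance model. It was 8 without Dox replicate 1, 14 without Dox replicate 2 and 3 without Dox replicate 3 (Manf, Nupr1 and Sdf2l1). Over all genes 1.06%, 2.11% and 0.682% rose in these fits, in the same order. Leaving out either NoDox replicate leaves 1 array in that group, so no member count is given for those fits. The calls therefore rest on having both NoDox arrays. The count was 0 in the fits with no intensity trend, or with the trend on the mean log2 ratio, in which 6 and 0 of all genes rose. It was 4 (Dnajc3, Nupr1, Pdia4 and Sdf2l1) where only probe sets with a recovered level were used, which left 9 of the 15 chaperone genes to test. In that fit 1.14% of all genes rose. With all probe sets of a gene averaged it was 7, against 1.10% of all genes. Hspa5, Pdia4 and Edem1 no longer passed there, and Ddit3 did.

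**Figure D1:**
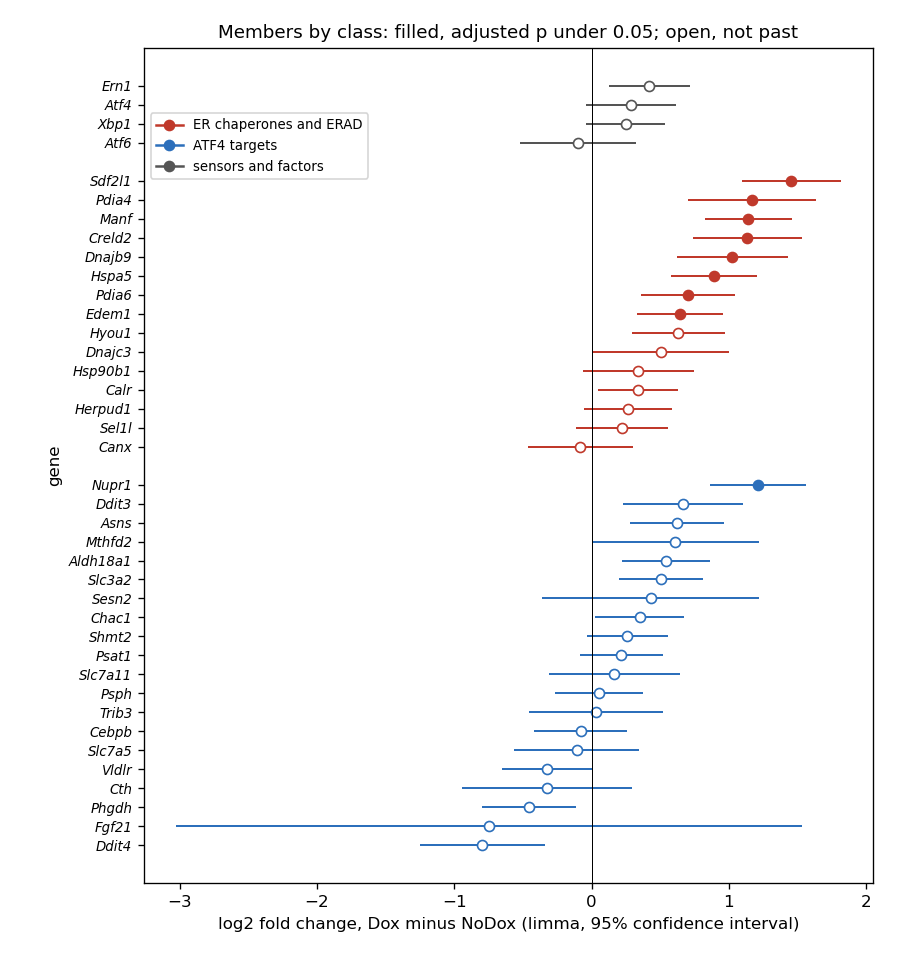
Log2 fold change of each of 39 members, Dox minus NoDox, from the limma fit (3 against 2 arrays), with 95% confidence intervals as bars, grouped by class; filled points have an adjusted p under 0.05. The 8 filled chaperone points lie between 0.64 and 1.46, and Nupr1 at 1.21 is the filled point among the ATF4 targets.

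None of the 4 sensors and factors passed the test, and 1, Ern1, had an unadjusted p under 0.05 (limma). Xbp1 read 1.16, 1.19 and 1.21 in Dox replicates 1 to 3, against 1.0001 and 0.9999 in NoDox. Its log2 fold change was 0.25 ± 0.12 (SE, adjusted p = 0.345), and its 4 probe sets lay between 0.25 and 0.36. All 3 Dox arrays were above both NoDox arrays, by a small margin. Ern1, the IRE1 sensor, read 1.35, 1.38 and 1.29 in Dox and 0.982 and 1.02 in NoDox, with a log2 fold change of 0.42 ± 0.13 (adjusted p = 0.133). Atf6 read 1.15, 0.762 and 0.925 in Dox, on both sides of its NoDox values of 1.04 and 0.964.

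Atf4 depended on the probe set. The probe set standing for the gene read 1.36, 1.17 and 1.13 in Dox and 0.942 and 1.06 in NoDox, a log2 fold change of 0.29 ± 0.14 (adjusted p = 0.347). A second, with the suffix _x, read 1.59, 1.46 and 1.69 against 0.966 and 1.03, a log2 fold change of 0.66 ± 0.13. When it stood for the gene, Atf4 passed the test (adjusted p = 0.036). That suffix marks probe sets that can cross-hybridise with other transcripts. The probe sets standing for Aldh18a1, Phgdh, Vldlr and Shmt2 carry it too, as does the other probe set of Nupr1. The third, at percentile 11.5 of signal level, gave -0.48 ± 0.85.

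**Figure D2:**
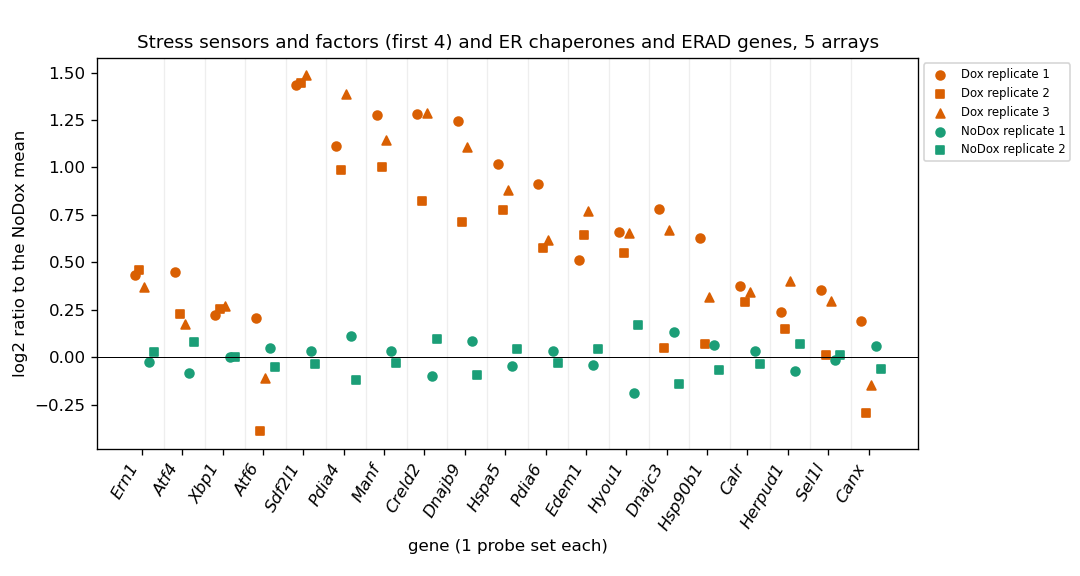
Log2 ratio to the NoDox mean (y axis) on each of the 5 arrays for the 4 sensors and factors and the 15 chaperone and degradation genes (x axis), with Dox arrays in orange and NoDox arrays in green. For 12 of the 15 chaperone and degradation genes all Dox points lie above both NoDox points.

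The chaperone class stood highest among the member classes. Its median log2 fold change was 0.64, against -0.08 over all genes. Over all 36 of its probe sets the median was 0.42, against -0.09 over all probe sets. Its median ratio was 1.72, 1.49 and 1.59 in Dox replicates 1, 2 and 3. All 3 Dox arrays exceeded both NoDox arrays in 12 of the 15 genes, against 13.8% of all genes.

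Of the 6 ATPase chaperones, cochaperones and cofactors, 3 rose. Sdf2l1, a partner of ER DNAJ proteins, read 2.71, 2.72 and 2.80 in Dox and 1.02 and 0.975 in NoDox, a log2 fold change of 1.46 ± 0.16 (SE, adjusted p = 0.00213). The 3 Dox arrays lay close together and far above NoDox. Dnajb9, a cochaperone of BiP, read 2.37, 1.64 and 2.16 against 1.06 and 0.938, a log2 fold change of 1.02 ± 0.18 (adjusted p = 0.0192). Hspa5, which encodes BiP, the main ER chaperone of the HSP70 family, read 2.02, 1.71 and 1.84 against 0.969 and 1.03, a log2 fold change of 0.89 ± 0.13 (adjusted p = 0.0121). Both had their lowest Dox value in replicate 2, still above NoDox. The other Hspa5 probe sets gave 0.75 and 0.33, and the gene did not pass with its probe sets averaged (adjusted p = 0.0616) or with recovered levels only (adjusted p = 0.402).

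The other 3 of these genes did not pass. Hyou1, a nucleotide exchange factor for BiP, read 1.58, 1.46 and 1.57 in Dox against 0.877 and 1.12, a log2 fold change of 0.63 ± 0.15 (adjusted p = 0.0634). Dnajc3, a BiP cochaperone, read 1.72, 1.03 and 1.59 against 1.09 and 0.905, so that Dox replicate 2 lay within the NoDox range. Its 5 probe sets ran from 0.15 to 1.06, and in the fit of every probe set the highest passed (adjusted p = 0.0335). Hsp90b1, the ER member of the HSP90 family, read 1.55, 1.05 and 1.25 against 1.05 and 0.955, with a log2 fold change of 0.34 ± 0.17. Its other probe set gave 0.03 ± 0.20, reading 1.33, 0.964 and 0.826 in Dox against 1.01 and 0.985.

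All 4 disulfide isomerases and secreted stress factors rose. Pdia4, a protein disulfide isomerase, read 2.16, 1.98 and 2.61 in Dox and 1.08 and 0.92 in NoDox, a log2 fold change of 1.17 ± 0.20 (adjusted p = 0.0207). Manf, a small protein that is kept in the ER and released under stress, read 2.42, 2.01 and 2.21 against 1.02 and 0.978, a log2 fold change of 1.14 ± 0.14 (adjusted p = 0.00353). Creld2, another secreted ER stress protein, read 2.43, 1.77 and 2.44 against 0.932 and 1.07, a log2 fold change of 1.13 ± 0.17 (adjusted p = 0.0124). For these 3 genes every Dox array was at least 1.77 times the NoDox mean. Pdia6, a further isomerase, read 1.89, 1.49 and 1.54 against 1.02 and 0.978, a log2 fold change of 0.70 ± 0.15 (adjusted p = 0.0435). It passed with Dox replicate 2 left out and was lost when any other array was.

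The lectin chaperones, which bind sugar chains of folding glycoproteins, did not pass. Calr read 1.30, 1.22 and 1.27 in Dox against 1.02 and 0.976, a log2 fold change of 0.34 ± 0.13. Canx read 1.14, 0.815 and 0.903 against 1.04 and 0.959, a log2 fold change of -0.08 ± 0.17. Its 3 probe sets ran from -0.37 to 0.45, and the sign changed with the probe set used.

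Of the 3 genes of ER-associated degradation, which returns misfolded proteins to the cytosol, Edem1 rose. It read 1.43, 1.56 and 1.70 in Dox and 0.971 and 1.03 in NoDox, a log2 fold change of 0.64 ± 0.14 (adjusted p = 0.0452). Herpud1 read 1.18, 1.11 and 1.32 against 0.949 and 1.05, a log2 fold change of 0.26 ± 0.14. Sel1l read 1.28, 1.01 and 1.23 against 0.991 and 1.01, with Dox replicate 2 within the NoDox range, and its sign turned when probe sets were averaged.

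**Figure D3:**
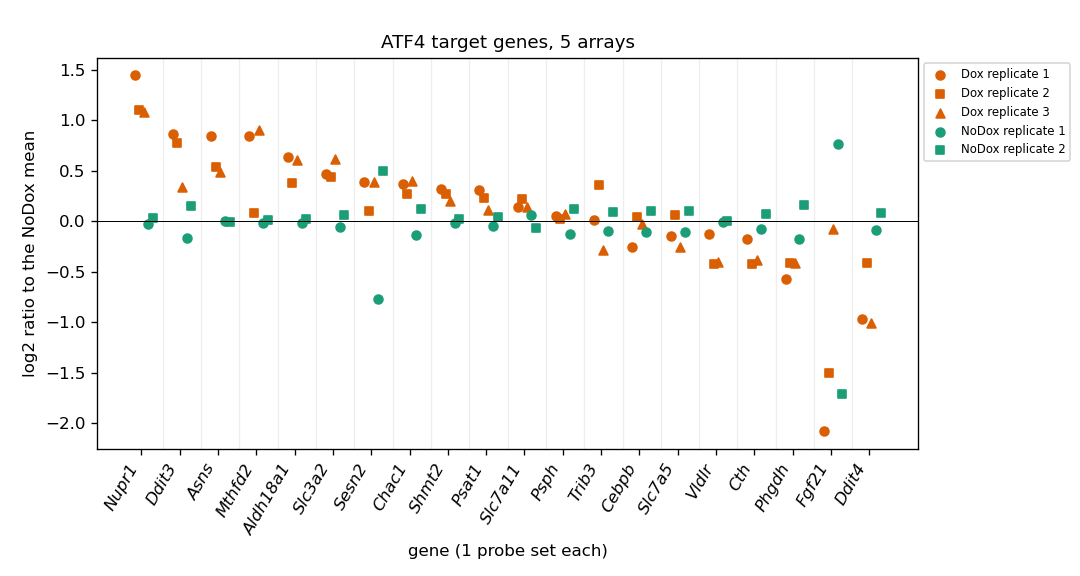
Log2 ratio to the NoDox mean (y axis) on each of the 5 arrays for the 20 measured ATF4 targets (x axis), with Dox arrays in orange and NoDox arrays in green. Genes are ordered by fold change, from Nupr1 to Ddit4, and Fgf21 spreads widely within both groups.

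The ATF4 targets were mixed. Their median log2 fold change was 0.19, and their median ratio was 1.17, 1.12 and 1.09 in Dox replicates 1 to 3. All Dox arrays were above NoDox in 10 of 20 genes and below in 4. Over all genes the shares were 13.8% above and 21.9% below.

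Of the 7 stress regulators among them, Nupr1 rose. Nupr1, a small chromatin-associated stress protein, read 2.72, 2.15 and 2.12 in Dox and 0.98 and 1.02 in NoDox, a log2 fold change of 1.21 ± 0.15 (adjusted p = 0.00452). Its other probe set gave 0.96 and also passed in the fit of every probe set (adjusted p = 0.0207). Ddit3, which encodes the factor CHOP, read 1.82, 1.71 and 1.26 against 0.8895 and 1.11, a log2 fold change of 0.67 ± 0.19 (adjusted p = 0.111). Ddit4, an inhibitor of mTORC1 signalling, read 0.511, 0.753 and 0.495 against 0.941 and 1.06, a log2 fold change of -0.79 ± 0.20 (adjusted p = 0.0758). Its Dox arrays were all below NoDox. The glutathione-degrading enzyme Chac1 had a log2 fold change of 0.35 ± 0.14 and Sesn2, a leucine sensor, 0.43 ± 0.35. Sesn2 read 0.585 and 1.41 in the NoDox arrays, which enclosed all its Dox values. Trib3, a pseudokinase that restrains ATF4, was at 0.03 ± 0.21 and the factor Cebpb at -0.08 ± 0.15, and both changed sign under other settings.

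Neither the lipoprotein receptor Vldlr nor the hormone Fgf21 passed. Vldlr read 0.913, 0.743 and 0.755 in Dox against 0.996 and 1.004, and its 6 probe sets all lay below 0. Fgf21 read 0.236, 0.352 and 0.947 against 1.70 and 0.304; its probe set was dim, at percentile 16.03 of recovered level among all probe sets.

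None of the 3 amino acid transport genes passed, and Slc3a2 had an unadjusted p under 0.05 (limma). Slc3a2, the heavy chain shared by several amino acid exchangers, read 1.38, 1.36 and 1.53 in Dox against 0.959 and 1.04, a log2 fold change of 0.51 ± 0.13 (adjusted p = 0.0855). Its light chain partners Slc7a11, a cystine transporter, and Slc7a5, a carrier of large neutral amino acids, were at 0.16 ± 0.21 and -0.11 ± 0.20. The probe sets of Slc7a11 differed in sign.

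None of the 8 measured genes of amino acid and one-carbon synthesis passed with 1 probe set a gene, and 4 had an unadjusted p under 0.05 (limma), 3 of them higher. Asns, asparagine synthetase, read 1.80, 1.45 and 1.40 in Dox against 1.003 and 0.997, a log2 fold change of 0.62 ± 0.15 (adjusted p = 0.0685). Aldh18a1, an enzyme of proline synthesis, read 1.56, 1.30 and 1.52 against 0.985 and 1.01, a log2 fold change of 0.54 ± 0.14 (adjusted p = 0.0816). Both groups of arrays were apart at the probe sets standing for these genes, although neither passed. The 5 probe sets of Aldh18a1 ran from -0.01 to 1.99. The lowest read 1.26, 0.942 and 0.824 in Dox against 1.01 and 0.991. Mthfd2, a mitochondrial folate enzyme, read 1.80, 1.05 and 1.87 against 0.989 and 1.01. Its second probe set read 2.41, 1.86 and 2.54 against 1.08 and 0.923 and passed in the fit of every probe set (adjusted p = 0.0345).

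The serine pathway had values of both signs, none past the threshold. Phgdh, its first enzyme, read 0.674, 0.749 and 0.75 in Dox against 0.886 and 1.11, a log2 fold change of -0.46 ± 0.15 (adjusted p = 0.154). Psat1 and Psph, the next enzymes, were at 0.22 ± 0.13 and 0.05 ± 0.14. Shmt2, which passes a carbon from serine to folate, was at 0.26 ± 0.13, and Cth, which makes cysteine, at -0.33 ± 0.27.

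**Figure D4:**
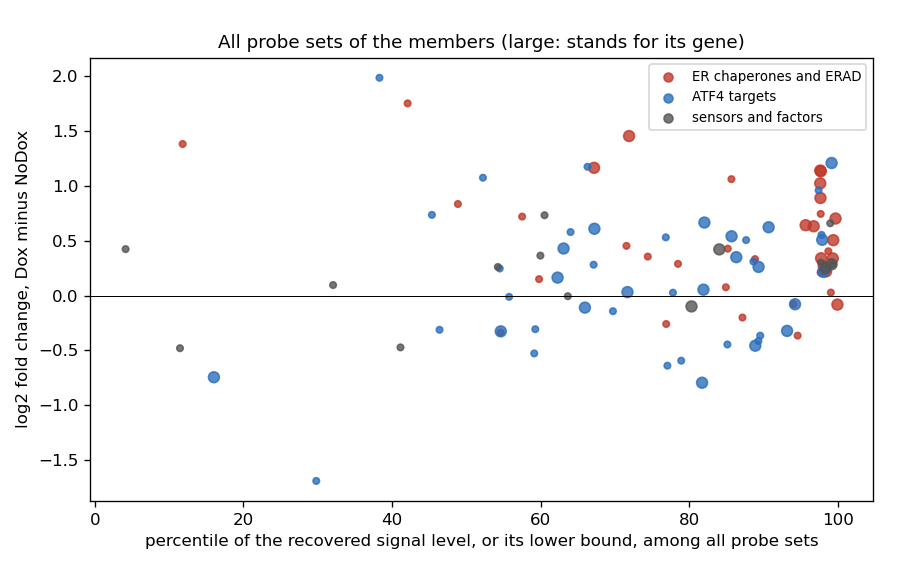
Log2 fold change (y axis) of all 95 probe sets of the members against the percentile of recovered signal level, or of its lower bound where none was recovered (x axis), coloured by class, with large points for the probe set that stands for its gene. Probe sets of 1 gene can differ, and most of the large points lie at high percentiles. The lower bound is computed from the ratios and so is not independent of the fold change.

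With every probe set tested, 7 of 36 chaperone probe sets (7 genes), 3 of 44 ATF4 target probe sets (Nupr1 with 2 and Mthfd2 with 1) and 0 of 15 of the sensors and factors passed, all higher, against 0.773% of 34945 probe sets. Edem1 and Pdia6 did not pass there (adjusted p = 0.065 and 0.0617), and Dnajc3 did.

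Further lists of the same pathways held 4 genes past the threshold. Of 36 other genes of folding, degradation and translocation 2 rose, against 1.37% of all genes, and the median was 0.42. At an unadjusted p under 0.05 (limma) 21 were higher and 1 lower, against 6.87% and 10.5% of all genes. All Dox arrays were above both NoDox arrays in 26 of them, against 13.8% of all genes. Derl3, a degradation factor of secretory cells, read 7.46, 9.73 and 9.90 in Dox against 0.932 and 1.07, a log2 fold change of 3.17 ± 0.31 (adjusted p = 0.0013), and passed with any 1 array left out. Syvn1, the ubiquitin ligase partner of Sel1l, rose by 0.86 ± 0.15 on the log2 scale. Of 22 kinases, factors and feedback genes 1 rose, Creb3l1, an ER-bound factor, at 1.15 ± 0.23. Eif2ak3, which encodes PERK, was at 0.52 ± 0.14 (adjusted p = 0.0974). Of 19 tRNA synthetases 0 passed in limma, with 3 at an unadjusted p under 0.05 and a median of -0.08. Of 22 other genes of amino acid and one-carbon metabolism Got1, a transaminase, fell by 0.91 ± 0.17 on the log2 scale, and the median was -0.16.

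**Figure D5:**
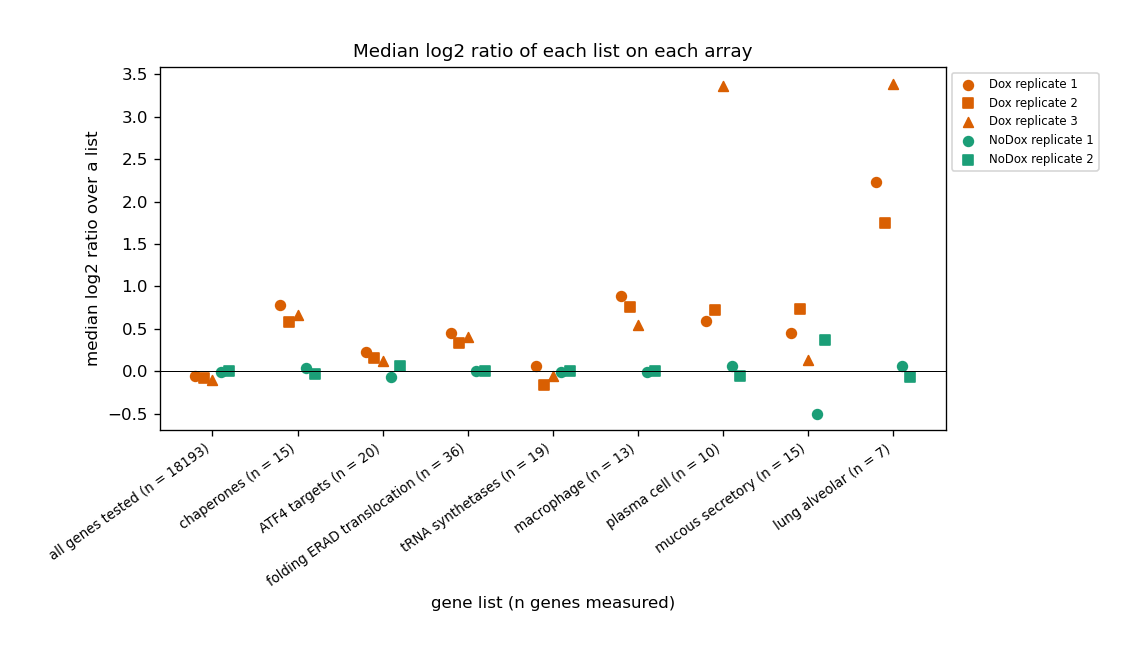
Median log2 ratio over the genes of each list (y axis) on each of the 5 arrays, for all genes, member classes, pathway lists and cell type marker lists (x axis), with Dox in orange and NoDox in green. The chaperone medians of the 3 Dox arrays lie at 0.78, 0.57 and 0.67, while the plasma cell median lies far higher in Dox replicate 3 than in the other Dox arrays.

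Several marker lists of other cell types differed between the groups along with the chaperones. Of 12 genes of the squamous lining, 1, Ppl, fell, and 5 had an unadjusted p under 0.05, 4 of them lower. Krt4, Krt5 and Krt13 lay between -0.04 and 0.02, Krt14 was at 0.56 ± 0.20, and Krt15, Trp63 and Evpl were at -0.41, -0.34 and -0.64. Of the 12 skeletal muscle genes, Myh4 and Pvalb fell by 3.06 and 1.53 on the log2 scale, and 0 lay above 0. Of 8 smooth muscle and 7 adipocyte genes 0 passed in limma, with 3 and 4 at an unadjusted p under 0.05, all lower, and medians of -0.34 and -0.61. Of 10 plasma cell genes 1 rose, Igha, and 8 lay above 0. Prdm1 and Sdc1 were at -0.43 and -0.18, neither past the threshold. The summed ratio of the 10 genes was 18.0, 18.8 and 104 in Dox replicates 1 to 3 against 10.4 and 9.62. Their median ratio was 1.52, 1.65 and 10.7 against 1.04 and 0.959. Of 13 macrophage genes 5 rose, with summed ratios of 25.4, 23.3 and 22.7 against 12.9 and 13.1. Of 15 mucous cell genes 1 rose, Fcgbp, with summed ratios of 27.0, 36.7 and 51.2 against 11.5 and 18.5. Their median ratio was 1.36, 1.66 and 1.09 against 0.707 and 1.29, so a few genes carried the sums. Clca1 alone read 3.61, 7.25 and 19.2 in Dox. Of the 15 genes 13 lay above 0, and Bpifb1 and Tff2 were at -0.66 and -0.40. Of 7 lung genes, alveolar except for the CC10 gene Scgb1a1 of airway club cells, 5 rose, with Sftpa1 7.95-fold higher. The summed ratios of the 7 were 32.9, 23.0 and 59.5 against 7.37 and 6.63. Scgb1a1 was at 0.79 ± 0.25 and did not pass. All 7 lung genes were above both NoDox arrays in all 3 Dox arrays, although the tissue is labelled esophagus. The median ratio of the chaperone class was 1.72, 1.49 and 1.59 in Dox replicates 1 to 3. The part of these cell types in the member values was not tested.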

How the data were processed

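Per the labels' protocols, biotin-labelled esophageal RNA was hybridised to Affymetrix Mouse Genome 430 2.0 arrays, and signals were made with Microarray Suite 5.0 and normalized in GeneSpring 7.3.1. The authors deposited linear ratio values, checked to be ratios to the mean of both NoDox arrays. The members and lists were chosen with earlier results of these data known.

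A signal level was recovered from whole-step solutions of the 5 ratios for 40710 of 45098 probe sets (90.3%), and for 1.5% of shuffled ones. On simulated data 95.9% of the levels found were right. A first model without a scale factor per array recovered few levels and was replaced. The rest got a lower bound as their level. This departs from the plan, which took the probe set of highest recovered level. With recovered levels only, which left 9 of 15 chaperone genes, 4 members rose. The bound is computed from the ratios, so a probe set lower in Dox can get a lower one. Among probe sets with a bound only, Myh4 (log2 fold change -3.06) stood at percentile 76.7 and Krt4 (-0.04) at 93.9. The bound entered the probe set choice and the variance trend. Hspa5, Dnajb9, Pdia6, Manf, Creld2 and Nupr1 were called on a bound only. For Canx and Herpud1, a probe set of lower fold change and lower bound was passed over. For Hsp90b1, the one passed over had a lower fold change and a higher bound. The bounds were equal after rounding, and the choice went by ID.

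Log2 ratios were tested with limma 3.58.1 (R 4.3.3; lmFit, eBayes with a trend on level; 3 residual degrees of freedom), 1 probe set for each of 18193 genes, with Benjamini-Hochberg adjustment. Genes were named by GEO's platform annotation. The choice among probe sets of equal level took 3 forms, each change made after member values had been seen. The first took levels unrounded, the second rounded to 2 decimals with ties by ID, and the one used rounded to 1 decimal with ties by probe set suffix and then ID. They gave 9, 10 and 9 members higher; the same 9 in each, with Atf4 added in the second. Hspa5 had an adjusted p of 0.0495, 0.0122 and 0.0121 in turn.

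In a simulation of this comparison over 18193 genes, limma called 88, 139 and 166 of 200 genes changed 2-, 4- and 8-fold. There were 5, 8 and 20 false calls, and 0 with no change. The simulated spread was drawn from the fitted variance model, so the simulation cannot test that model. All 40 members are named, with pathway genes past the threshold. Alternatives changed the scaling, the offset, the level filter, the probe set, the variance model, the weights of arrays, a replicate block, the threshold or left out 1 array. Replicate 3 exists in Dox only, so the replicate block fits that array with its own term. The block therefore compares Dox replicates 1 and 2 with NoDox and is not an alternative over all 5 arrays. Precision is limited by having 5 arrays.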

Additional observations from a re-analysis of the deposited data

How the results depend on the processing

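Of 763 values of single members under alternatives, 654 kept their direction and side of the threshold, 53 lost the call, 30 gained it and 26 changed sign. Most of the 39 members had no call to lose, so these shares do not measure how stable the 9 calls are. The count of 9 members higher became 4 with quantile normalization of recovered signals and 4 with recovered levels only. Over all genes 1.29% and 1.14% rose in these fits. It became 0 both with no intensity trend and with the trend on the mean log2 ratio. Leaving out 1 Dox array gave 3 to 14. The count lower became 1 (Ddit4) with array weights, with the replicate block and at adjusted p under 0.1. It was 0 to 1 with 1 Dox array left out. The 4 further pathway genes became 7 with median centring, 9 with genes at or above the median level only, 0 in both other variance models, 15 with array weights, 7 with the replicate block, 12 at adjusted p under 0.1, and 1 to 14 with 1 array left out. The ATF4 target median of 0.19 became 0.27 with median centring and 0.28 with quantile normalization. The cause of these changes was not tested.

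Signs turned in genes that did not pass. With median centring Canx, whose sign also follows the probe set used, was at 0.00079 and Cebpb at 0.0039. With quantile normalization Atf4 was at -0.51, Canx 0.52, Sel1l -0.10 and Cebpb 0.38, and with recovered levels only at -0.48, 0.45, -0.20 and 0.31. With probe sets averaged Atf6 was at 0.052, Canx 0.0021, Sel1l -0.10, Cebpb 0.12, Trib3 -0.055 and Slc7a11 -0.18. With array weights Trib3 was at -0.042. With 1 array left out the range was -0.25 to 0.047 for Atf6, -0.22 to 0.024 for Canx, -0.18 to 0.027 for Cebpb, -0.13 to 0.19 for Trib3, -0.21 to 1.07 for Sesn2, -1.98 to 0.49 for Fgf21 and -0.072 to 0.18 for Psph. Same-numbered arrays shared little deviation (correlations of 0.03 and 0.05), so the replicate numbers are not taken as pairs. The block raised all calls from 250 higher and 217 lower to 375 and 500. Dox replicate 3 drops out of that comparison, having no NoDox partner. The median log2 fold change over all genes was -0.0705 both with the block and without Dox replicate 3. The other forms of the probe set choice and the fit of recovered levels only were added after seeing the data.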
